A study of Ovis aries with 6 samples.

Results

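The outermost layer of the epidermis is shed by proteases that cut the corneodesmosomes, the junctions that hold dead keratinocytes together. The kallikreins KLK5 and KLK7 are serine proteases of this layer, KLK5 can activate other kallikreins, and LEKTI, the product of SPINK5, holds them in check. Cathepsin V (CTSV) is a cysteine protease inhibited by cystatin M/E (CST6), matriptase (ST14) is a membrane serine protease that acts upstream of other proteases, caspase 14 (CASP14) takes part in the processing of filaggrin, and corneodesmosin (CDSN) is a substrate of the kallikreins. A list of 10 such genes was described here, KLK5, KLK7, KLK8, KLK10, ST14, CTSV, CASP14, SPINK5, CST6 and CDSN. Of these, 9 were found by symbol among the 28394 genes of the files. The tenth, SPINK5, was found by its gene identifier 101116141, under the name LOC101116141, which the RefSeq name table pairs with SPINK5. Counts over 10 genes below include it.

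Skin behind the shoulder blade of ewes of 2 breeds was sequenced as polyA RNA, 1 library for each sheep. The fine wool Super Merino (SM) group comprised sheep 128, 30034 and 30126, and the coarse wool Small Tail Han (STH) group comprised sheep XW3, XW5 and XW8. The labels give an age of 9 months for all 6 sheep, whereas the text of the study gives a younger age. No treatment was given, both breeds were kept on the same farm and feed, and breed is the only factor. Whole skin was used, so that a lower level from fewer cells of a type and one from less RNA per cell cannot be told apart.

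Total counts lay between 28870583 and 44645091 per sheep, and 3 counts of a gene corresponded to between 0.0664 and 0.0993 CPM (counts scaled to library size with TMM factors), which covers counting error only. Skin markers were present, among them KRT5 of the basal epidermis with 5376 ± 632 (SD, n = 3) CPM for SM against 7003 ± 1431 (SD, n = 3) CPM for STH. On the first principal component, SM sheep 128 (score -4.20) lay nearer to STH sheep XW3 (-18.4) than to SM sheep 30034 (25.8) or 30126 (73.4). Each SM sheep still scored above each STH sheep there. On the second component, sheep 128 (-31.0) lay beside 30034 (-29.4) and far from XW3 (22.9). Fold changes are given as log2 FC, positive where SM was higher, with their SE.

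None of the 10 genes differed between the breeds by the thresholds of the study, adjusted p below 0.05 together with a change of more than 1.5-fold, in edgeR's quasi-likelihood test. This was also the case for all genes, since 0 of 15320 tested genes passed (0%). In the study itself, which ran edgeR in other software on the same sheep, CASP14 did pass these thresholds. DESeq2 called 443 genes (2.89%) and edgeR's likelihood ratio test 352 (2.3%), and in both tests 0 of the 10 passed. At an unadjusted p under 0.05 there was 1 of the 10, CASP14, higher in STH sheep, against 2762 of all tested genes (18%), which divide into 7.21% with the SM mean above and 10.8% with the STH mean above. In all 10 genes the sheep of the breeds overlapped, whereas 12.3% of the tested genes had every SM value above every STH value and 13.3% the reverse. The median log2 FC over the 10 genes was -0.13, with a range from -0.92 to 0.40, and over all genes it was 0.018.

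**Figure D1:**
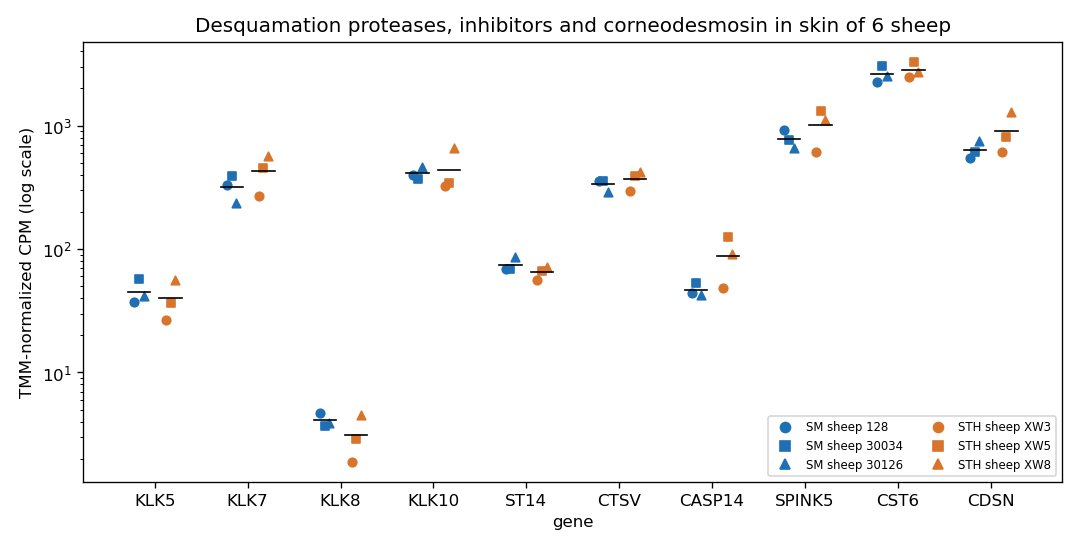
TMM-normalized CPM (log axis) of the 10 genes in each of the 6 sheep, with blue for SM, orange for STH, 1 marker shape per sheep and a bar at each breed mean. The 2 breeds overlap in each gene, and CASP14 has its 2 highest values, 125 and 90.7 CPM, in STH sheep XW5 and XW8.

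Compared per length, with the RPKM that the authors deposited, the 10 genes covered a wide range of levels. CST6 stood far above the rest, from 2511 to 3606 RPKM over the 6 sheep. CDSN (148 to 345 RPKM), KLK10 (157 to 307), KLK7 (113 to 258), SPINK5 (112 to 226) and CTSV (93.5 to 128) followed, and each overlapped its neighbour in this order. CASP14 (16.2 to 45.3 RPKM), KLK5 (11.6 to 25.4) and ST14 (7.42 to 11.6) formed a lower group whose neighbours also overlapped, though for KLK5 and ST14 this rested on the highest ST14 sheep and the lowest KLK5 sheep. KLK8 was lowest, from 0.886 to 2.15 RPKM, and its range was separate from that of ST14.

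The kallikreins KLK5, KLK7, KLK8 and KLK10 lie in a cluster on the minus strand of chromosome 14 of Oar_v4.0. KLK5 extends from 55859336 to 55869455, KLK7 from 55887925 to 55893046, KLK8 from 55899254 to 55905591 and KLK10 from 55916549 to 55921864. From KLK1 to KLK13 the cluster held 12 kallikrein genes within 135 kb, all on that strand, of which KLK4 and KLK13 were matched by gene identifier. The levels within it were uneven. KLK7 and KLK10 had median RPKM of 170.2 and 188, and the genes between them, KLK8 and KLK9, had 1.83 and 4.45. KLK6, next to KLK5, had a median of 35.2 RPKM against 16.9 for KLK5. At the other side of KLK10, KLK11, KLK12 and KLK13 had medians of 6.38, 6.93 and 3.03 RPKM. The genes at the start of the cluster, KLK1, KLK15 and KLK4, had medians of 0.368, 0.0031 and 0.132, from between 0 and 30 counts per sheep.

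**Figure D2:**
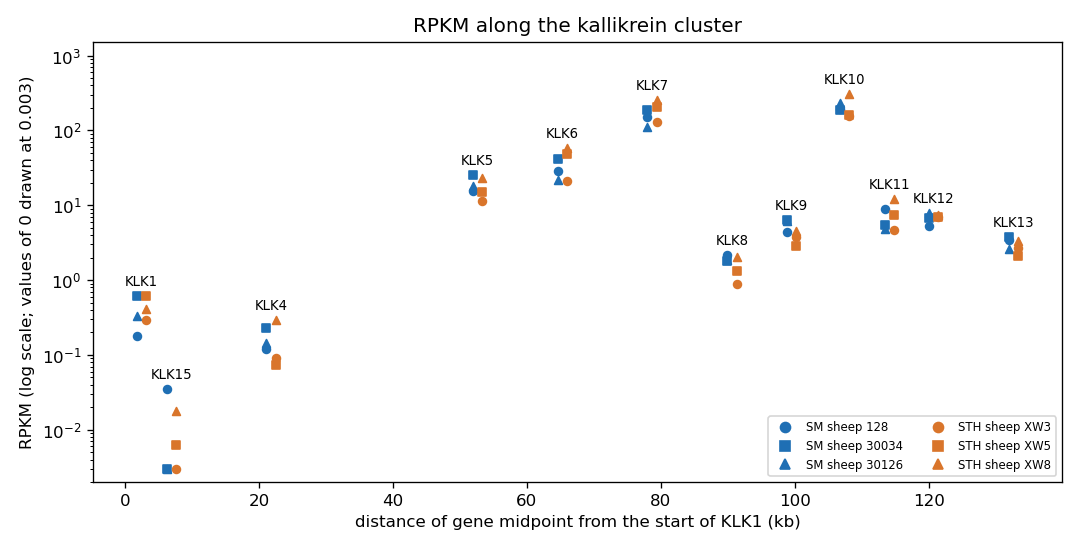
RPKM (log axis, with values of 0 drawn at 0.003) of the 12 kallikrein genes against the distance in kb of their midpoint from the start of KLK1, with 1 point per sheep. KLK7 and KLK10 are highest in each of the 6 sheep, with the low KLK8 and KLK9 between them.

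For KLK7, a chymotrypsin-like protease that cuts corneodesmosin, the SM sheep 128, 30034 and 30126 had 327, 388 and 234 CPM, and among the STH sheep XW3, XW5 and XW8 it was 271, 456 and 563 CPM. The 2 highest values were in STH sheep, but XW3 lay below 2 of the SM sheep. Mean levels were 316 ± 77.7 (SD, n = 3) for SM against 429.8 ± 148 (SD, n = 3) for STH, a log2 FC of -0.44 (SE 0.28, 95% interval -1.08 to 0.20, edgeR quasi-likelihood adjusted p = 0.388), and it was -0.20 without XW8. KLK5, the trypsin-like kallikrein, had 36.9, 57.2 and 41.3 CPM in the SM sheep and 26.7, 36.7 and 56.1 CPM in the STH sheep. Its highest and second highest values thus came from different breeds. The log2 FC was 0.18 (SE 0.28, 95% interval -0.45 to 0.81, edgeR adjusted p = 0.714), with means of 45.1 ± 10.7 (SD, n = 3) for SM and 39.8 ± 14.9 (SD, n = 3). The sign for KLK5 turned, to -0.04, without SM sheep 30034 and also without STH sheep XW3.

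KLK10, a kallikrein whose part in shedding is less well known, had 399, 372 and 464 CPM in the SM sheep and 323, 344 and 652 CPM in the STH sheep. XW8 was the highest of the 6 sheep and the other STH sheep were the lowest. The log2 FC of -0.09 (SE 0.27, 95% interval -0.70 to 0.52, edgeR adjusted p = 0.853) became 0.30 without XW8. KLK8, a trypsin-like kallikrein, was low in each sheep, with 4.66, 3.72 and 3.87 CPM in SM and 1.88, 2.89 and 4.50 CPM in STH sheep, from between 58 and 168 counts. STH sheep XW8 lay among the SM sheep, and the other STH sheep below them. Its log2 FC was 0.40 (SE 0.35, 95% interval -0.39 to 1.20, edgeR adjusted p = 0.513), with 0.15 without XW3 and 0.77 without XW8. The intervals of KLK5, KLK7, KLK8 and KLK10 each include 0, and they do not show that the levels were alike.

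ST14 lies on chromosome 21 from 35480979 to 35501391. It varied least between sheep within the STH breed, with 69.1, 68.8 and 86.1 CPM in SM and 56.0, 66.4 and 71.3 CPM in STH sheep. SM sheep 30126 was highest and STH sheep XW3 lowest, and the rest lay close together. The log2 FC was 0.21 (SE 0.16, 95% interval -0.15 to 0.57, edgeR adjusted p = 0.453), with 0.11 without SM sheep 30126 and 0.12 without XW3. CTSV lies on chromosome 2 from 29199414 to 29205028, and had 359, 356 and 290.1 CPM in SM and 297, 393 and 419 CPM in STH sheep. Each breed thus held a sheep near 290 CPM, 30126 and XW3, and the other 4 sheep lay higher. Its log2 FC was -0.14 (SE 0.18, 95% interval -0.54 to 0.26, edgeR adjusted p = 0.646), with -0.28 without XW3 and -0.035 without SM sheep 30126.

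CASP14 lies on chromosome 5 from 7856497 to 7865023. Its level was 44.0 CPM in SM sheep 128, 52.8 in 30034 and 42.6 in 30126, against 48.4 CPM in STH sheep XW3, 125 in XW5 and 90.7 in XW8. XW5 and XW8 stood above every SM sheep, whereas XW3 lay within the SM range. Mean levels were 46.4 ± 5.55 (SD, n = 3) for SM against 88.0 ± 38.3 (SD, n = 3) for STH, 1.90-fold higher in STH sheep, with a log2 FC of -0.92 (SE 0.30, 95% interval -1.61 to -0.24). The unadjusted p was 0.0140 and the adjusted p 0.247 in edgeR's quasi-likelihood test, so that the difference did not pass over all genes. The study called CASP14 at its thresholds, with a log2 FC of -0.92, from these same sheep. That call is no independent evidence of its direction. On leaving out single sheep its log2 FC stayed negative, from -1.22 without XW3 to -0.58 without XW5.

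Without XW3, 4 of the 10 genes had an unadjusted p under 0.05, all higher in STH sheep, against 9.14% of the 15178 genes then tested. These were CASP14 with a log2 FC of -1.22 (unadjusted p = 3.73e-04), CDSN with -0.72 (0.0210), KLK7 with -0.69 (0.0226) and SPINK5 with -0.63 (0.0156), as given by edgeR. Their adjusted p lay between 0.259 and 0.325, so that 0 passed. Without XW5 there were 0 of the 10 at an unadjusted p under 0.05, against 7.34% of the 15097 genes then tested. In each fit without 1 of the other sheep there was 1 of the 10 at that p. XW3 had the lowest STH value in each of the 10 genes, so that leaving it out raises every STH mean. The 4 genes are thus no support for a breed difference. XW3 was the lowest sheep in 5 of the 10 genes, and XW5 and XW8 together had the highest value in 7. Such counts were not taken over all tested genes, so they do not set the 10 apart. The SD relative to the mean was larger in STH than in SM sheep for 8 of the 10 genes, compared with 34.2% of all tested genes.

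**Figure D3:**
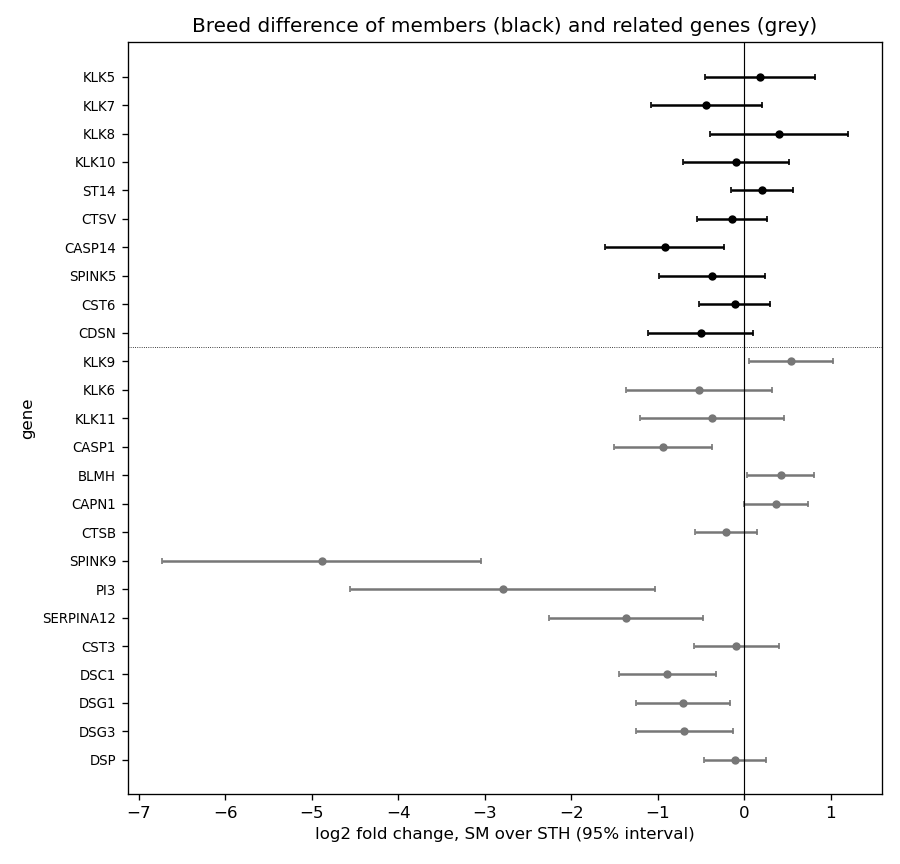
Log2 fold change (log2 FC), SM over STH, with its 95% interval for the 10 genes (black) and for 15 related genes (grey), from edgeR's quasi-likelihood test. Among the black points only the interval of CASP14, at -0.92, leaves out 0, and among the grey points SPINK9 lies farthest from 0 at -4.89.

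Of the inhibitors, SPINK5 lies on chromosome 5 from 56731554 to 56819189. It had 922, 757 and 656 CPM in the SM sheep and 616, 1299.8 and 1107 CPM in the STH sheep. As for CASP14, XW5 and XW8 were highest, but here XW3 was the lowest of the 6. The log2 FC was -0.37 (SE 0.27, 95% interval -0.99 to 0.24, edgeR adjusted p = 0.438; -0.15 without XW5), with means of 778 ± 134 (SD, n = 3) for SM and 1008 ± 353 (SD, n = 3). CST6, on chromosome 21 from 43298051 to 43299525, had 2233, 3064 and 2513 CPM in SM and 2458, 3248 and 2736 CPM in STH sheep. The sheep of the breeds alternated in order. Its log2 FC was -0.11 (SE 0.18, 95% interval -0.53 to 0.30, edgeR adjusted p = 0.732) and was 0.0029 without XW5.

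CDSN, the substrate on chromosome 20 from 27011713 to 27016410, had 541, 612 and 751 CPM in SM and 613, 806 and 1278 CPM in STH sheep. XW8 was well above the other sheep, and XW3 differed little from SM sheep 30034. Mean levels were 635 ± 107 (SD, n = 3) CPM for SM against 899 ± 342 (SD, n = 3) CPM for STH, a log2 FC of -0.50 (SE 0.27, 95% interval -1.11 to 0.11, edgeR adjusted p = 0.324). Without XW8 it was -0.16.

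The balance of a protease and its inhibitor or substrate was then taken as the log2 ratio of their counts within each sheep, which does not depend on the scaling of the library. For 5 pairs breeds were set against each other in an exact permutation test (two-sided, smallest possible p 0.1), and in each pair the breeds overlapped with an adjusted p of 1 over the 5. The ratio of KLK5 to SPINK5 was -4.64, -3.73 and -3.99 among SM sheep against -4.53, -5.15 and -4.30 among STH sheep. SM sheep 30034 and 30126 had the highest ratios and XW5 the lowest. The difference of the means was 0.54 (SM minus STH, exact permutation p = 0.3), and ran from 0.30 to 0.80 on leaving out single sheep. The ratio of KLK7 to SPINK5 had means of -1.32 ± 0.30 (SD, n = 3) for SM against -1.22 ± 0.27 (SD, n = 3) for STH, a difference smaller than either SD.

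For KLK7 against its substrate CDSN the ratio was -0.73, -0.66 and -1.68 among SM sheep against -1.18, -0.82 and -1.18 among STH sheep. SM sheep 30126 stood below the other 5. CTSV against CST6 had means of -2.95 ± 0.27 (SD, n = 3) for SM and -2.94 ± 0.20 (SD, n = 3), a difference of -0.018 between breeds (exact permutation p = 1). Over the 6 sheep that ratio ran from -3.11 to -2.64. ST14 against SPINT1, which encodes an inhibitor of matriptase, had means of -0.22 ± 0.18 (SD, n = 3) for SM and 0.0035 ± 0.27 (SD, n = 3) (exact permutation p = 0.4).

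**Figure D4:**
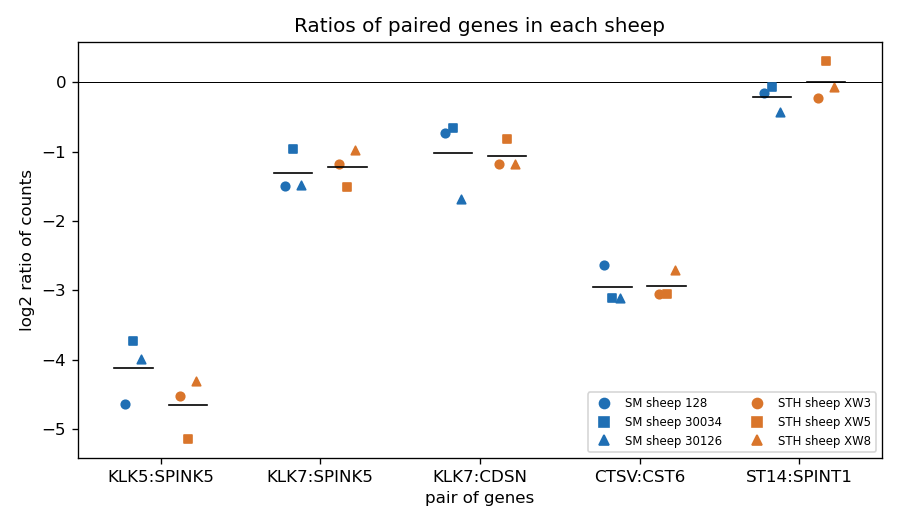
Log2 ratio of counts for 5 pairs of genes in each sheep, with blue for SM, orange for STH and a bar at each breed mean. The breeds overlap in each pair, and the means for CTSV against CST6 lie at -2.95 and -2.94.

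Related genes were taken from 4 lists of 84 genes, of which 71 were found and 63 tested. KLK14, FLG and FLG2 were among those not found. By edgeR's quasi-likelihood test 0 of the 63 passed both thresholds, 12 had an unadjusted p under 0.05 (9 of them with the STH mean above and 3 with the SM mean above), a share near the 18% of all tested genes, and DESeq2 called 5 and the likelihood ratio test 4. Their median log2 FC was -0.13. Among the other kallikreins 7 were tested, with a median of -0.15, and KLK9, of less known function, had the smallest p. It had 41.2 ± 7.14 (SD, n = 3) CPM for SM against 28.3 ± 6.69 (SD, n = 3) CPM for STH, a log2 FC of 0.54 (SE 0.21, edgeR adjusted p = 0.260). KLK6 had the opposite sign, -0.52 (SE 0.37, edgeR adjusted p = 0.431), and KLK11 had -0.38 (SE 0.37).

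Of the other protease inhibitors 22 were tested, with a median log2 FC of -0.14. At an unadjusted p under 0.05 there were 5 higher in STH sheep, SPINK9, PI3, SERPINA12, CSTA and CSTB, against 10.8% of all tested genes. There was 1 higher in SM sheep, SPINT2, against 7.21% of all tested genes. CSTA, CSTB and SPINT2 were chosen after their values were seen. SPINK9, a small inhibitor of KLK5, lies on chromosome 5 from 57172889 to 57181578, and had 0.331, 0.0886 and 0.102 CPM in SM sheep, from 10, 4 and 4 counts, against 8.75, 4.81 and 1.32 CPM in STH sheep, from 270, 203 and 40 counts. Each STH sheep was above each SM sheep, and here XW3 was the highest. The log2 FC was -4.89 (SE 0.81, edgeR quasi-likelihood adjusted p = 0.159), and the adjusted p was 2.19e-08 in DESeq2. SERPINA12, the product of which, vaspin, inhibits KLK7, had 6.61, 6.20 and 12.5 CPM in SM and 11.2, 25.3 and 28.9 CPM in STH sheep. XW3 and SM sheep 30126 overlapped. Its log2 FC was -1.37 (SE 0.39, edgeR adjusted p = 0.246, DESeq2 adjusted p = 0.0208).

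PI3, named for the elastase inhibitor elafin, had 1.19, 0.0886 and 0.357 CPM in SM and 2.30, 3.08 and 5.59 CPM in STH sheep, a log2 FC of -2.79 (SE 0.77, edgeR adjusted p = 0.240, DESeq2 adjusted p = 0.00947). The STH sheep were above the SM sheep. The cystatins CSTA and CSTB, intracellular inhibitors of cysteine proteases, had log2 FCs of -0.74 (SE 0.23) and -0.48 (SE 0.16), each with an edgeR adjusted p of 0.247 and no overlap of the breeds. Over the 22 tested inhibitors, 4 had every STH value above every SM value and 1 the reverse, against 13.3% and 12.3% of all tested genes. SPINT2, an inhibitor of matriptase and other serine proteases, had 0.35 (SE 0.15, edgeR adjusted p = 0.274). The most abundant gene of this list, CST3, had 1163 ± 313 (SD, n = 3) and 1238 ± 129 (SD, n = 3) CPM. SPINK9, PI3 and SERPINA12 are also genes that the study picked from these sheep.

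Among the other epidermal proteases 24 were tested, with a median log2 FC of -0.03 and 12 of them higher in each breed. CASP1, the caspase that matures interleukin 1 beta, was matched by gene identifier and had a log2 FC of -0.94 (SE 0.25, edgeR adjusted p = 0.240, DESeq2 adjusted p = 0.0296). BLMH, bleomycin hydrolase, which breaks down filaggrin peptides, had 0.42 (SE 0.17, edgeR adjusted p = 0.262), and CAPN1, a calpain, had 0.37 (SE 0.16, edgeR adjusted p = 0.282). In each of these 3 genes the breeds did not overlap in CPM. For CAPN1 this rested on 147.8 CPM in SM sheep 128 against 147.4 CPM in STH sheep XW3. In RPKM the order of these sheep was reversed, with 27.8 in 128 and 28.3 in XW3. Over the 24 genes, 2 had every SM value above every STH value and 2 the reverse, against 12.3% and 13.3% of all tested genes. CTSB, the most abundant of the list, had -0.21 (SE 0.16).

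The list of corneodesmosome and desmosome proteins held 10 tested genes, with a median log2 FC of -0.29, and 3 of them had an unadjusted p under 0.05, all higher in STH sheep, against 10.8% of all tested genes. DSC1, a desmosomal cadherin of the upper epidermis, had 603, 385 and 323 CPM in SM and 661, 871 and 899 CPM in STH sheep, a log2 FC of -0.89 (SE 0.25, edgeR adjusted p = 0.240, DESeq2 adjusted p = 0.0281). It is also among the genes that the study picked. DSG1 had -0.71 (SE 0.24) and DSG3, a cadherin of the lower epidermis, -0.69 (SE 0.25). DSC1, DSG1 and DSG3 lie close together on chromosome 23, and SM sheep 30126 was the lowest in each. On leaving out single sheep, DSC1 ran from -1.19 to -0.70, DSG1 from -0.93 to -0.49 and DSG3 from -0.84 to -0.45. Each was nearest to 0 without 30126. The STH sheep lay above the SM sheep in each of the 3, while DSP, the plaque protein desmoplakin and the most abundant of the list, had -0.11 (SE 0.16). Over the 10 genes, 4 had every STH value above every SM value and 1 the reverse, against 13.3% and 12.3% of all tested genes. The summed level of the list ran from 9355 to 10163 CPM in SM and from 10492 to 11988 CPM in STH sheep.

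Markers of the epidermal layers and of other cell types were read against the same shares of all tested genes, 7.21% with the SM mean above and 10.8% with the STH mean above at an unadjusted p under 0.05. Of the suprabasal epidermis markers 8 of 10 were found and tested, with a median log2 FC of -0.14, and 3 of them were higher in STH sheep at an unadjusted p under 0.05. These were IVL at -1.05 (SE 0.20), KRT10 at -1.34 (SE 0.29) and KRT1 at -1.20 (SE 0.35), all picked by the study too. The summed level of the list was 3267 to 4031 CPM in SM and 3680 to 7536 CPM in STH sheep, with XW3 lowest of the STH sheep. Of the sebocyte markers 10 of 10 were higher in SM sheep, 8 at an unadjusted p under 0.05. Their summed levels were 2214 to 3299 CPM in SM and 1078 to 1666 CPM in STH sheep. The study had picked DGAT2L6, AWAT1, ELOVL3, FA2H, PLIN2, CIDEA and KRT79 as higher in SM from these same sheep. These counts are therefore no independent evidence. The tested markers at that p were 1 of 8 for the basal epidermis and 1 of 8 for the inner root sheath. They were also 1 of 8 for sweat glands and ducts and 1 of 8 for fibroblasts, all of these higher in STH sheep. For the wool shaft they were 2 of 10, higher in SM sheep. By that p, counts of 1 or 2 genes do not set these lists apart from all genes. In direction the wool shaft list was uniform, with 10 of 10 tested markers higher in SM sheep, against 7873 of all 15320 tested genes. Its median log2 FC was 0.46, against 0.018 over all genes. The summed level of the list overlapped, from 6729 to 12936 CPM in SM and from 4725 to 8656 CPM in STH sheep. SM sheep 30126 was the highest sheep in each of its tested markers. Every SM value was above every STH value in 2 of the 10, against 12.3% of all tested genes. The part of these markers in the values of the 10 genes was not tested.

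The counts of the 10 genes were also set against keratins of the epidermal layers within each sheep, a comparison chosen after seeing the data. KRT1 and KRT10, the keratins of suprabasal cells, summed to 1161, 1391 and 1075 CPM in SM and 1535, 3084 and 4091 CPM in STH sheep. They were among the 3 suprabasal markers with the lowest log2 FC, and the others of that list did not share this difference (KRTDAP 0.07, LYPD3 0.07, SBSN -0.08, KRT2 -0.11 and DMKN -0.16). Relative to them, 9 of the 10 genes were higher in each SM sheep than in any STH sheep, with the breeds overlapping for CASP14, and 54.9% of all tested genes were separated in the same way by this denominator. Relative to the summed counts of all 8 suprabasal markers the number was 6 of the 10, against 24.6% of all tested genes, and the breeds overlapped for KLK7, SPINK5, CDSN and CASP14. That sum still holds KRT1, KRT10 and IVL, whose means were higher in STH sheep, so it is no independent check. It is also 1 shared denominator, so that the 6 are not 6 separate results. Relative to these 8 markers, the differences of the mean log2 ratio (SM minus STH) ran from -0.24 for CASP14 to 1.07 for KLK8. Relative to KRT1 plus KRT10 they ran from 0.34 for CASP14 to 1.64 for KLK8. For the 9 genes separated by KRT1 plus KRT10, the exact two-sided permutation p was 0.1, the smallest possible, and 0.111 adjusted over 10. All 10 ratios share 1 denominator, which was itself higher in each STH sheep, so that the 9 are not 9 separate results. For CASP14 the log2 ratio was -4.72, -4.72 and -4.66 among SM sheep against -4.99, -4.63 and -5.49 among STH sheep (exact permutation p = 0.4). The 3 SM sheep lay within 0.1 of each other, and STH sheep XW5 was above them.

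Relative to KRT5 and KRT14, the keratins of basal cells, which summed to between 7272 and 9463 CPM in SM and between 9079 and 13676 CPM in STH sheep, 4 of the 10 genes were higher in each SM sheep than in any STH sheep, against 29.7% of all tested genes. These were KLK5, KLK8, ST14 and CST6, with differences of 0.64, 0.90, 0.63 and 0.30 (exact permutation p = 0.1, adjusted p = 0.25 over 10). KLK7, SPINK5 and CDSN had differences of 0.010, 0.10 and -0.028, each smaller than the SD within a breed. CASP14 had -0.40 (exact permutation p = 0.3). KRT14 was matched by gene identifier.

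**Figure D5:**
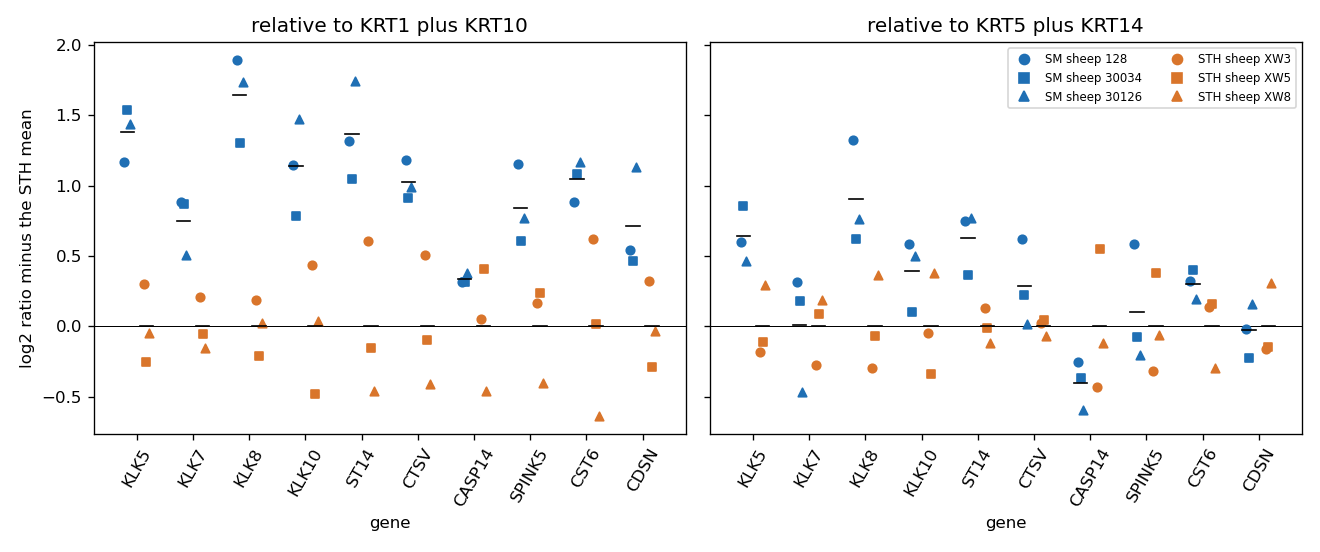
Log2 ratio of each gene to the summed counts of KRT1 and KRT10 (left) or of KRT5 and KRT14 (right), minus the mean of the STH sheep, with 1 point per sheep and a bar at each breed mean. On the left the SM sheep lie above the STH sheep in 9 of 10 genes (54.9% of all tested genes), and on the right in 4 of 10 (29.7% of all tested genes).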

How the data were processed

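The authors used the RNA-seq module of CLC Genomics Workbench and the sheep assembly Oar_v4.0 to map reads and count genes. Total counts per gene were deposited by the authors as whole numbers without normalization, and which reads and strand they count is not given in the sources used here. The deposited RPKM, made by the authors for exon length and library size, served to compare levels between genes, and the other deposited columns were not used. The 10 genes and all lists were chosen with earlier results of these data known. Genes reaching 10 counts in 3 or more sheep were tested with edgeR 4.0.16 in R 4.3.3 (TMM, estimateDisp, glmQLFit and glmQLFTest) with breed as the only term, and Benjamini-Hochberg adjustment ran over all 15320 genes. The standard error is the size of the log2 FC divided by the square root of F, and the 95% interval uses the t distribution with the total degrees of freedom. Ratios used 0.5 counts added to each gene. Genes named beside the 10 were, per list, the 3 with the smallest p and the most abundant, with exceptions stated and the markers of other cell types given mostly as counts. The alternatives were DESeq2 1.42.0, limma 3.58.1 (voom) and other edgeR tests, scalings and filters, a length trend (span 0.5, on lengths implied by counts and RPKM), and each sheep left out. The edgeR tests, limma-voom and DESeq2 were first run, with the main filter, on simulated data in which 200 genes had a known change. The other scalings and filters, the length trend and the fits without a sheep were not simulated. The name table (ARS-UI_Ramb_v3.0) matched 21630 identifiers and was used for names only. No sheep shares a label that pairs it with the other breed.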

Additional observations from a re-analysis of the deposited data

How the results depend on the processing

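The number of genes past both thresholds was 0 of the 10 in each alternative and as each sheep was left out. Over all genes it was 0 in the test reported, 443 with DESeq2, 352 with the likelihood ratio test, 332 with the exact test, 2 with the newer quasi-likelihood dispersion, 2 without a filter, 8 with the length trend removed and 5 at an adjusted p under 0.1, and it ran from 0 to 1175 as each sheep was left out, the highest without SM sheep 128. For the related genes it was 5 with DESeq2 and 4 with the likelihood ratio and exact tests, and from 0 to 4 as each sheep was left out, again highest without SM sheep 128. The cause was not tested. Without SM sheep 128 the adjusted p of SPINK9, PI3, DSC1 and DSG1 in edgeR's quasi-likelihood test was 0.0163, 0.0172, 0.0169 and 0.0412. At an unadjusted p under 0.05 the split over all genes was 1104 higher in SM and 1658 in STH sheep, 1437 and 1402 with upper quartile factors, and 1532 and 1458 with the length trend removed. The median of the 10 genes ran from -0.28 to -0.088 over the fits without 1 sheep. Of the log2 FC values, KLK5 turned to -0.039 without SM sheep 30034 and without STH sheep XW3 (range over single sheep left out -0.039 to 0.51), KLK10 to 0.30 (-0.28 to 0.30) and KLK11 to 0.047 (-0.71 to 0.047) without XW8, CST6 to 0.0029 without XW5 (-0.26 to 0.0029), CST3 to 0.12 without SM sheep 128 (-0.23 to 0.12) and DSP to 0.20 with the length trend removed. The breed differences of the ratios ranged, as each sheep was left out, from -0.27 to 0.033 for KLK7 to SPINK5 (positive at 0.033 without XW8), from -0.14 to 0.37 for KLK7 to CDSN (-0.11 without SM sheep 128, -0.14 without 30034, -0.019 without XW3 and -0.022 without XW8) and from -0.18 to 0.095 for CTSV to CST6 (0.059 without SM sheep 30034, 0.063 without 30126 and 0.095 without XW8), whereas KLK5 to SPINK5 (0.30 to 0.80) and ST14 to SPINT1 (-0.34 to -0.074) kept their sign. No paired analysis was possible because the labels give no replicate number that the breeds share.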
